A study of Mus musculus with 10 samples.

Results

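The kinesin motor family was read in neural crest cells of mouse embryos at embryonic day 10.5, with and without a stabilised p53. Its members were the listed genes named Kif with a number and at most a letter a to c, together with Kifc1, Kifc2, Kifc3, the kinesin-associated protein gene Kifap3 and the light chain genes Klc1 to Klc4. They came to 45 of the 49671 genes in the count table. The p53_activated embryos carried Wnt1Cre, the R26mTmG reporter and the Trp53 LSL-25,26 allele beside a normal Trp53 allele, so that Cre released a stabilised p53 protein in the same cells that it marked. The protein from this allele is itself impaired as a transcription factor and is known to stabilise the normal p53 made beside it. The control embryos were littermates with Wnt1Cre, R26mTmG and normal Trp53. Both groups had 5 embryos on a mixed 129/Sv and C57BL/6 background, and each library was made from 1 embryo, after sorting for GFP. Wnt1-Cre acts in the dorsal neural tube as well as in the crest that leaves it, so the sorted cells can hold neural tube cells and every descendant of both.

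Kinesins are ATP-driven motors that walk along microtubules, mostly towards the plus end. Some build, focus and elongate the mitotic spindle or help to divide the cell at cytokinesis, and their transcripts peak in dividing cells. Others carry vesicles, mitochondria and protein complexes along axons or along the cilium. Neural crest cells at this stage divide, migrate and begin to form sensory and autonomic neurons, so both kinds of motor are in use.

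The p53_activated libraries held 14644162 to 28379562 counts and the control libraries 12368058 to 23514828. Levels are given as CPM, the share of a library's counts after TMM scaling. Cdkn1a, the p53 target that encodes p21, averaged 105 ± 11.9 CPM in p53_activated and 7.92 ± 1.59 CPM in control libraries (SD, n = 5 each), and it rose (log2 fold change 3.73 ± 0.145 SE, edgeR quasi-likelihood adjusted p = 1.74e-10). The p53 target Mdm2 (0.95 ± 0.10, adjusted p = 2.48e-05) and Trp53 (0.68 ± 0.17, adjusted p = 0.0264) rose as well, Trp53 not without control replicate 2 or 3 or p53_activated replicate 4 (0.0716, 0.0569 and 0.0558). Of 9 neural crest markers all were detected and 0 were called, with a median log2 fold change of -0.10. Over all tested genes 7.23% were called, so 0 calls in a list this short say little. Of 12 markers of differentiating neurons 10 fell (83.3%, beside 2.74% of all tested genes) and 0 rose, their median being -0.88. Of 7 proliferation markers 0 were called (median 0.07), and of 5 neural tube progenitor markers Olig3 rose. Among the tested markers of red cells, macrophages, endothelium, epithelium and muscle 0 were called. Their medians were -0.25, -0.21, -0.43, -0.74 and -0.65, so all 5 lists leaned lower in p53_activated embryos. The muscle marker Myog came near the threshold (-1.58 ± 0.47, edgeR adjusted p = 0.0546), with every p53_activated embryo below every control.

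Of the 45 kinesin genes 40 had enough counts to be tested. At an adjusted p under 0.05 (edgeR quasi-likelihood test, Benjamini-Hochberg over 14528 genes) 6 rose in p53_activated embryos, where 4.49% of all tested genes rose, and 1 fell, where 2.74% of all tested genes fell. The risers were Kif1c, Kif13a and the mitotic motor genes Kifc1, Kif15, Kif18b and Kif20a, and the gene that fell was Kifap3. In all 7 of the 40 (17.5%) were called, against 1050 of 14528 genes (7.23%). The count over all genes fell to 636, 692 and 652 when control replicate 2, control replicate 4 or p53_activated replicate 5 was left out, each in turn. The median log2 fold change was 0.20 over the 40 kinesins and -0.01 over all tested genes, with 28 kinesins above 0 and 12 below. The groups were separate for 6 kinesins that were higher in p53_activated embryos (4.54% of all tested genes) and for 1 that was lower (3.52%). With upper quartile or total count scaling Kif22, Kif2a and Klc4 crossed from above to below 0.

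**Figure D1:**
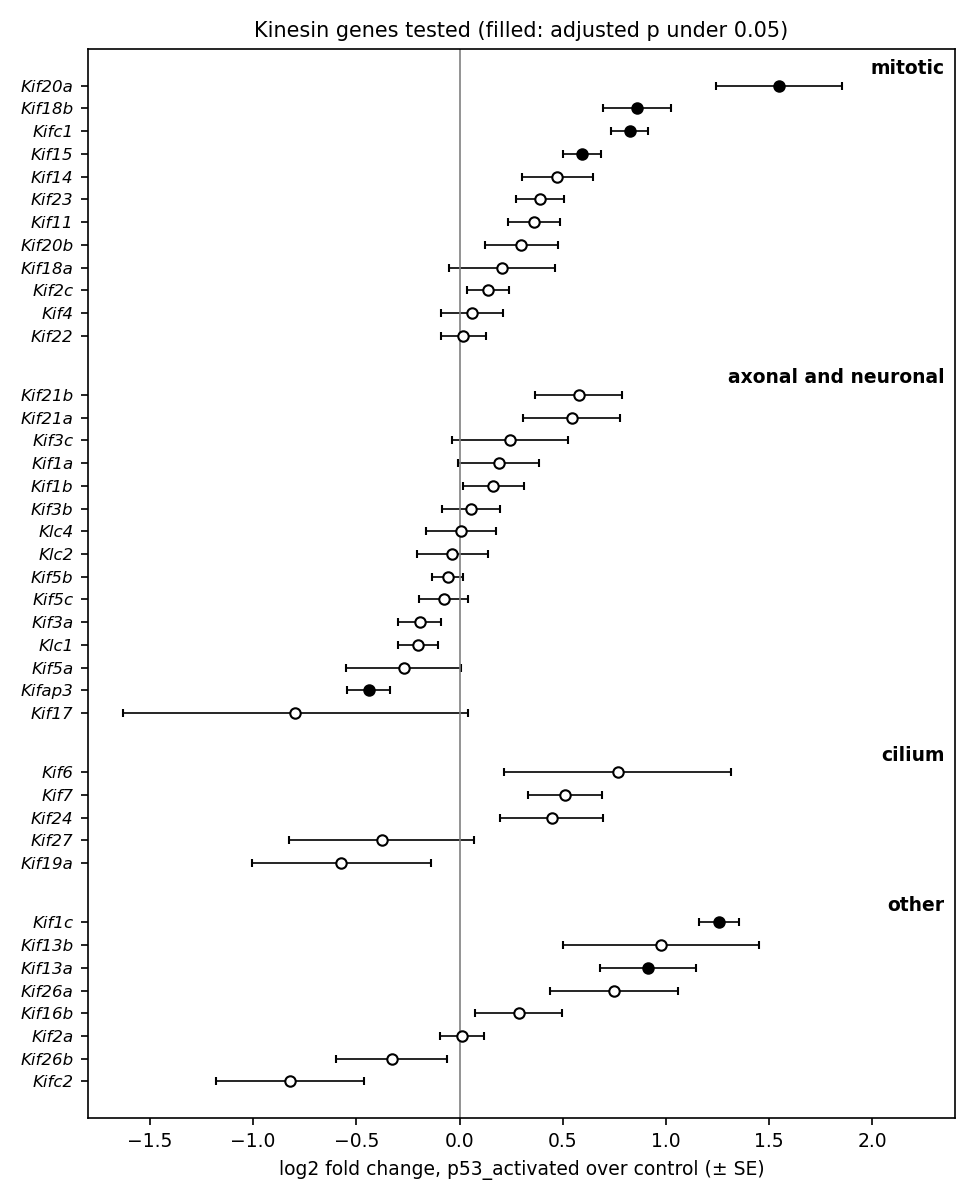
Log2 fold change (x axis, p53_activated over control, bars ± SE) of the 40 tested kinesin genes, grouped by role, with filled points for an adjusted p under 0.05. The 12 mitotic genes sit at 0.02 to 1.55 (Kif22 below 0 with upper quartile or total count scaling), while the 15 axonal and neuronal genes spread on both sides (-0.80 to 0.58) and only Kifap3 among them is filled.

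Kif1c had the smallest p of the family. It encodes a kinesin-3 motor that carries vesicles towards microtubule plus ends in many cell types. In p53_activated replicates 1 to 5 it had 112, 103, 113, 99.4 and 106 CPM, against 46.2, 39.5, 39.1, 48.2 and 50.3 CPM in control replicates 1 to 5. Every p53_activated embryo lay far above every control embryo, and the groups did not come near each other. This was a log2 fold change of 1.26 ± 0.10 (2.39-fold, edgeR adjusted p = 3.08e-07), and the call was kept under all 23 other settings tried, with log2 fold changes of 1.18 to 1.31. Kif1c (ENSMUSG00000020821) lies on chromosome 11 from 70700548 to 70731964 on GRCm38.

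Kif1a and Kif1b, the nearest relatives of Kif1c, did not pass the test. Kif1a, which carries synaptic vesicle precursors, averaged 22.0 ± 6.95 and 19.3 ± 3.55 CPM in p53_activated and control libraries (log2 fold change 0.19 ± 0.20, edgeR adjusted p = 0.626). Kif1b, a carrier of mitochondria and synaptic vesicle precursors, averaged 82.9 ± 23.2 and 74.1 ± 3.53 CPM (0.16 ± 0.15, adjusted p = 0.575). Taken per kilobase of exon, Kif1c made up 67.9% ± 7.07 of the summed level of the 3 genes in p53_activated embryos and 49.4% ± 2.99 in control embryos (SD, n = 5 each). The share ran from 58.3% to 73.7% in p53_activated and from 46.7% to 52.9% in control embryos, so the groups did not overlap. Per kilobase of the longest transcript it was 60.3% ± 7.63 (49.9% to 66.6%) in p53_activated and 41.0% ± 2.76 (38.3% to 44.4%) in control embryos. By that measure Kif1b, at 44.6% ± 1.99, held the largest share in control embryos.

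**Figure D2:**
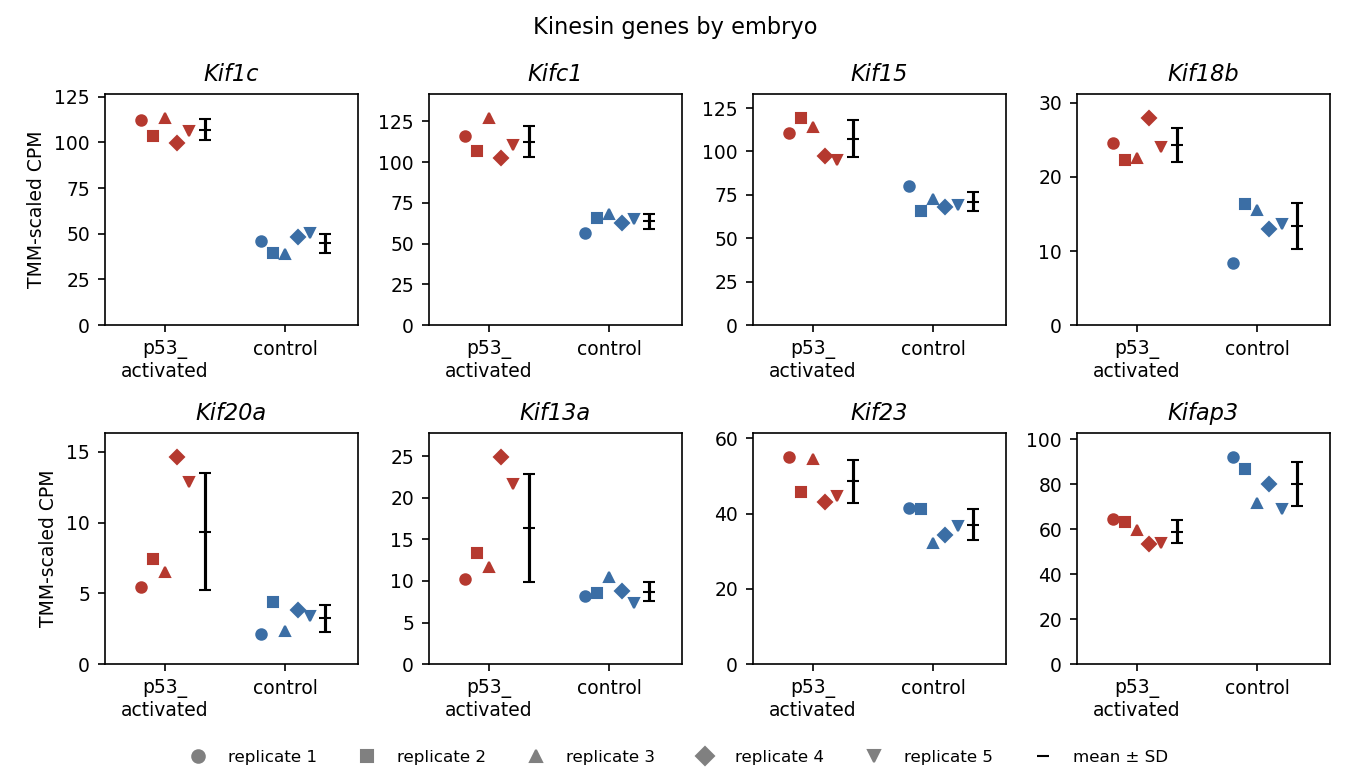
TMM-scaled CPM (y axis) of 8 kinesin genes in each embryo, p53_activated left and control right, with marker shape for the replicate number and black bars for mean ± SD (n = 5). Kif1c, Kifc1, Kif15, Kif18b, Kif20a and Kif23 have every p53_activated embryo above every control embryo, Kifap3 has every one below, and Kif13a overlaps at 10.2 and 10.5 CPM.

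The mitotic kinesins lay above 0 as a group of 12 tested genes, with a median log2 fold change of 0.38, and 4 of them (33.3%, beside 4.49% of all tested genes) rose while 0 fell. Kif22 was the exception to the common direction under upper quartile and total count scaling (-0.02 and -0.01). The groups of embryos did not overlap for 5 of the 12, as for 1172 of 14528 tested genes (8.07%). The summed level of the 12 genes was 645 to 783 CPM in p53_activated and 514 to 626 CPM in control embryos. The 7 proliferation markers had a summed level of 1120 to 1220 CPM in p53_activated and 928 to 1200 CPM in control embryos. Control replicate 1 had the lowest value of both lists. With it left out Kifc1 (0.78), Kif15 (0.64), Kif18b (0.73) and Kif20a (1.44) were still called (edgeR adjusted p = 2.17e-05, 0.000303, 0.00338 and 0.0129). In bulk RNA, more cells of a type and more RNA per cell cannot be told apart.

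Kifc1 encodes a kinesin-14 motor that walks to the minus end and focuses the spindle poles. It had 116, 107, 127, 103 and 111 CPM in p53_activated replicates 1 to 5, against 56.5, 65.8, 68.3, 62.7 and 64.8 CPM in control replicates 1 to 5. The lowest p53_activated value stood well above the highest control value. On the log2 scale the change was 0.82 ± 0.09 (1.77-fold, edgeR adjusted p = 1.61e-05). Kifc5b, a near-identical copy that is no member of the family as listed, had 18.5 to 24.4 CPM in p53_activated and 5.68 to 10.3 CPM in control embryos (1.51 ± 0.17, adjusted p = 2.92e-05). Reads that fit both copies may be split between them or lost, so the single values are uncertain. Summed over both copies the level was 127 to 146 CPM in p53_activated and 63.2 to 75.4 CPM in control embryos, and these ranges did not overlap. Kifc1 (ENSMUSG00000079553) lies on chromosome 17 from 33875659 to 33890661.

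Kif15 encodes a kinesin-12 that helps to hold the spindle bipolar beside Kif11. It had 111, 119, 114, 97.6 and 95.1 CPM in p53_activated replicates 1 to 5, against 80.2, 66.0, 72.4, 67.9 and 69.1 CPM in control replicates 1 to 5. The groups were separate, with p53_activated replicates 4 and 5 nearest to the controls. Its log2 fold change was 0.59 ± 0.09 (1.51-fold, edgeR adjusted p = 0.000749). Kif15 (ENSMUSG00000036768) lies on chromosome 9 from 122951046 to 123018733.

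Kif18b encodes a kinesin-8 that works with Kif2c at the plus ends of astral microtubules. It had 24.6, 22.3, 22.5, 27.9 and 24.1 CPM in p53_activated replicates 1 to 5, against 8.36, 16.4, 15.6, 13.02 and 13.7 CPM in control replicates 1 to 5. The p53_activated embryos lay close together and all above the controls, among which replicate 1 was low. This was a log2 fold change of 0.86 ± 0.17 (1.82-fold, edgeR adjusted p = 0.00478). Kif18b (ENSMUSG00000051378) lies on chromosome 11 from 102905529 to 102925124. The calls of Kifc1, Kif15 and Kif18b were kept under all 23 other settings.

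Kif20a, whose product brings the chromosomal passenger complex to the central spindle, had the largest fold change of the family. It had 5.44, 7.41, 6.48, 14.6 and 12.9 CPM in p53_activated replicates 1 to 5, against 2.16, 4.40, 2.37, 3.83 and 3.42 CPM in control replicates 1 to 5. The groups did not overlap, and p53_activated replicates 4 and 5 were the highest. On the log2 scale the change was 1.55 ± 0.30 (2.93-fold, edgeR adjusted p = 0.00559). Leaving out this pair of libraries, which was decided on after seeing the values, gave 1.015 and no call (adjusted p = 0.0567). Kif20a, on chromosome 18, shares 29.3% of its exon length with Cdc23 on the opposite strand, and whether the counting used strand is not stated. Cdc23 was itself higher, with 11.9 ± 5.74 CPM in p53_activated and 5.83 ± 1.24 CPM in control libraries (SD, n = 5 each; 1.04 ± 0.28, adjusted p = 0.0385, a call lost on dropping any of 7 single libraries), and was likewise highest in p53_activated replicates 4 and 5 (21.2 and 11.9 CPM). The count of Kif20a is therefore uncertain.

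Kif23 came closest to the threshold without passing it. It encodes the motor of centralspindlin, which bundles microtubules at the cleavage plane. It had 54.9, 45.7, 54.5, 43.0 and 44.6 CPM in p53_activated replicates 1 to 5, against 41.4, 41.1, 32.1, 34.2 and 36.6 CPM in control replicates 1 to 5. The groups did not overlap, although their edges lay close together. Its log2 fold change was 0.39 ± 0.12 (edgeR adjusted p = 0.0506), and 8 of 23 other settings called the gene. Dropping control replicate 1 gave an adjusted p of 0.0395, dropping p53_activated replicate 4 gave 0.0395, and DESeq2 gave 0.0248.

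The other mitotic motors did not pass. Kif11, the motor that pushes spindle poles apart, averaged 41.4 ± 4.58 CPM in p53_activated and 32.2 ± 4.90 CPM in control libraries (log2 fold change 0.36 ± 0.13, edgeR adjusted p = 0.0972). Kif14, which acts in cytokinesis, averaged 13.4 ± 2.90 and 9.64 ± 0.81 CPM (0.47 ± 0.17, adjusted p = 0.108). The depolymerase gene Kif2c, the partner of Kif18b, averaged 77.3 ± 5.98 and 70.3 ± 8.72 CPM (0.14 ± 0.10, adjusted p = 0.474). The chromokinesin gene Kif4 averaged 44.8 ± 7.09 and 42.9 ± 9.76 CPM (0.06 ± 0.15, adjusted p = 0.858), and its exons overlap those of Pdzd11 over 15.09% of their length. Kif20b (0.30 ± 0.18), a cytokinesis motor, and Kif18a (0.21 ± 0.26), which steadies chromosomes at the spindle equator, lay between these. Kif22, the other chromokinesin, stood at 222 ± 36.2 CPM in p53_activated and 219 ± 18.2 CPM in control libraries (0.02 ± 0.11, adjusted p = 0.945).

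The promoters of the mitotic motors are shown because these genes shared a sequence feature that the called and uncalled members had alike. Promoter windows of 250 bases before to 50 bases after the transcript start, from RefSeq on GRCm38.p6, were found for 36 of the 45 kinesins. They were searched on both strands for the cell cycle genes homology region (CHR, TTTGAA or TTTAAA) and for the CCAAT box (CCAAT), elements through which repressor and activator complexes time the transcription of mitotic genes. In the lines below capitals mark these matches, and each sequence runs 5′ to 3′ on the gene's strand from 70 bases before to 25 bases after the start. The first 3 are of mitotic genes that rose.
Kif15 (chr9:122951011-122951105, plus strand): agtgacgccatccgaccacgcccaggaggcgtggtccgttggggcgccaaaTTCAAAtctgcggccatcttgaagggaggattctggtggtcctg
Kif18b (chr11:102925100-102925194, minus strand): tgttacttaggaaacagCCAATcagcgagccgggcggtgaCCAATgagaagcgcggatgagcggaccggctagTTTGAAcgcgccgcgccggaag
Kifc1 (chr17:33890609-33890703, minus strand): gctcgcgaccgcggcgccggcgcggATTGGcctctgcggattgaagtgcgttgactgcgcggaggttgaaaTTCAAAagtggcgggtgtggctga
The next 4 are of mitotic genes that did not pass the test.
Kif11 (chr19:37376312-37376406, plus strand): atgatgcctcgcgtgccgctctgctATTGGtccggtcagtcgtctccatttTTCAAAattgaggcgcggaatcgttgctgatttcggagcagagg
Kif22 (chr7:127042396-127042490, minus strand): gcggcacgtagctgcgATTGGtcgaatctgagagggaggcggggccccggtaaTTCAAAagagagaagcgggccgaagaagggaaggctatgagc
Kif23 (chr9:61946775-61946869, minus strand): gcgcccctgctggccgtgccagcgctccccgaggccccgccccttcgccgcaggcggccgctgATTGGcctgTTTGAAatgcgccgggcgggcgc
Kif4 (chrX:100625995-100626089, plus strand): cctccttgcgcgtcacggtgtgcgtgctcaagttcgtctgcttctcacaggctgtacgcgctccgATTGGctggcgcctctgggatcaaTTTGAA
The last 2 are of Kif1c, which rose, and Kifap3, which fell, neither of them a mitotic motor.
Kif1c (chr11:70700478-70700572, plus strand): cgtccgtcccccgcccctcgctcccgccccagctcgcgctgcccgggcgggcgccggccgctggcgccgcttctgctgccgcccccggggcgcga
Kifap3 (chr1:163779513-163779607, plus strand): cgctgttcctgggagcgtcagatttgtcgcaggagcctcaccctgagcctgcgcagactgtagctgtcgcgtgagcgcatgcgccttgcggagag

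A CHR match was present in 10 of the 11 mitotic motors with a window, all but Kif18a. It was present in 1 of 12 axonal and neuronal genes, 1 of 5 cilium genes, 1 of 8 other kinesins, and in 27.6% of all 32851 promoter windows. Close to the start, from -60 to 30 bases, 9 of the 11 mitotic motors had a match, against 7.9% of all windows. The match was in all 3 mitotic genes that rose and had a window, and in 7 of the 8 that did not pass. A CCAAT box was present in 7 of the 11 mitotic motors and in 37.4% of all windows, and no CHR match overlapped one in the sequences shown. The consensus half-site of p53, read without mismatch, was found in the windows of Kif23, Klc4, Kif16b and Kif26b and in 8.36% of all windows. In Kif1c, Kif13a, Kifap3, Kif15, Kif18b and Kifc1 its letters were not in the window. These matches describe sequence only, and binding was not measured.

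**Figure D3:**
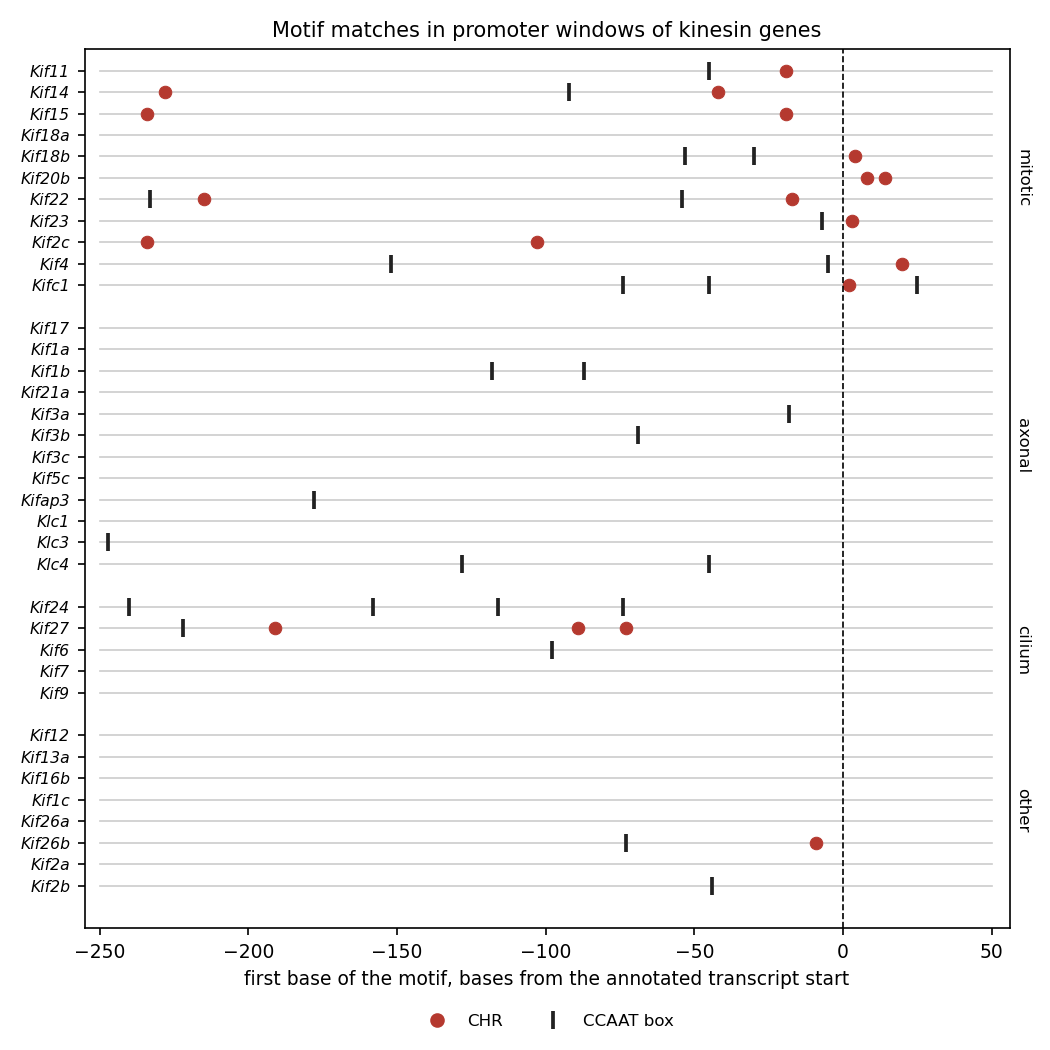
Position of CHR (red circles) and CCAAT box (black ticks) matches in the promoter windows of 36 kinesin genes (x axis, bases from the annotated transcript start, dashed line), grouped by role and with the first listed start of each gene (the match of Kif1a is in its second window). CHR matches gather near the start in the mitotic group, where 9 of 11 genes have one between -60 and 30 bases, and are sparse in the other groups.

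Of 15 tested axonal and neuronal motor genes 1 fell (6.67%, beside 2.74% of all genes called lower) and 0 rose. Their median was -0.03 on the log2 scale, with 7 genes above 0 and 8 below. Their summed level was 582 to 741 CPM in p53_activated and 606 to 758 CPM in control embryos, so the groups overlapped. The summed level of the 12 neuron markers was 481 to 748 CPM in p53_activated and 933 to 1190 CPM in control embryos. The difference between the lists, and the part of the neuron markers in the kinesin values, was not tested.

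Kifap3 was the gene that fell among those listed as axonal. It encodes the non-motor subunit that joins Kif3a and Kif3b in heterotrimeric kinesin-2, the motor of anterograde transport in cilia and of some axonal cargo. It had 64.6, 63.2, 59.8, 53.3 and 53.8 CPM in p53_activated replicates 1 to 5, against 92.0, 87.0, 71.8, 80.1 and 69.1 CPM in control replicates 1 to 5. All p53_activated embryos lay below all controls, and control replicates 1 and 2 were the highest. This was a log2 fold change of -0.44 ± 0.10 (0.737-fold, edgeR adjusted p = 0.0174). Dropping control replicate 2 or p53_activated replicate 5 ended the call (adjusted p = 0.0514 and 0.0511). Kifap3 (ENSMUSG00000026585) lies on chromosome 1 from 163779583 to 163917109.

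The motor subunits of the same complex did not pass the test. Kif3a averaged 82.0 ± 5.58 CPM in p53_activated and 93.8 ± 14.4 CPM in control libraries (log2 fold change -0.19 ± 0.10, edgeR adjusted p = 0.293). Kif3b averaged 17.9 ± 1.96 and 17.3 ± 2.42 CPM (0.06 ± 0.14, adjusted p = 0.862). Kif3c, a kinesin-2 motor of neurons, stood at 0.24 ± 0.28 (adjusted p = 0.669), and 40.72% of its exon length is shared with other genes. The neuronal kinesin-2 gene Kif17 was near the limit of detection, with 55 counts over all p53_activated and 81 over all control libraries.

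None of the genes of kinesin-1, the main motor of fast axonal transport, passed the test. Kif5b, its ubiquitous heavy chain, had 106 to 119 CPM in p53_activated and 110.0 to 122 CPM in control embryos (log2 fold change -0.06 ± 0.08, edgeR adjusted p = 0.711). The neuronal heavy chain Kif5c averaged 69.5 ± 6.45 and 73.3 ± 12.8 CPM (-0.08 ± 0.12, adjusted p = 0.756). Kif5a, also neuronal, averaged 10.7 ± 4.16 and 13.02 ± 4.52 CPM (-0.27 ± 0.28, adjusted p = 0.626). Per kilobase of exon Kif5a, Kif5b and Kif5c held 6.06% ± 2.10, 55.2% ± 3.78 and 38.8% ± 2.92 of the summed heavy chain level in p53_activated embryos, against 6.93% ± 2.01, 54.5% ± 4.96 and 38.5% ± 3.97 in control embryos. Among the light chains, which bind cargo, Klc1 averaged 84.5 ± 7.51 and 97.2 ± 10.8 CPM (-0.20 ± 0.10, adjusted p = 0.227), while Klc2 (-0.03 ± 0.17) and Klc4 (0.01 ± 0.17) were near 0.

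Kif21b and Kif21a, motors that restrain microtubule growth in neurons, were the axonal genes with the smallest p after Kifap3. Kif21b had 31.0, 32.9, 38.0, 66.6 and 40.6 CPM in p53_activated replicates 1 to 5, against 38.7, 30.04, 22.6, 26.7 and 22.4 CPM in control replicates 1 to 5. The groups overlapped, with p53_activated replicate 4 far above the rest. Its log2 fold change was 0.58 ± 0.21 (edgeR adjusted p = 0.117), and that of Kif21a 0.54 ± 0.24 (adjusted p = 0.185), with 14.3 ± 3.51 CPM in p53_activated and 9.83 ± 3.19 CPM in control libraries.

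**Figure D4:**
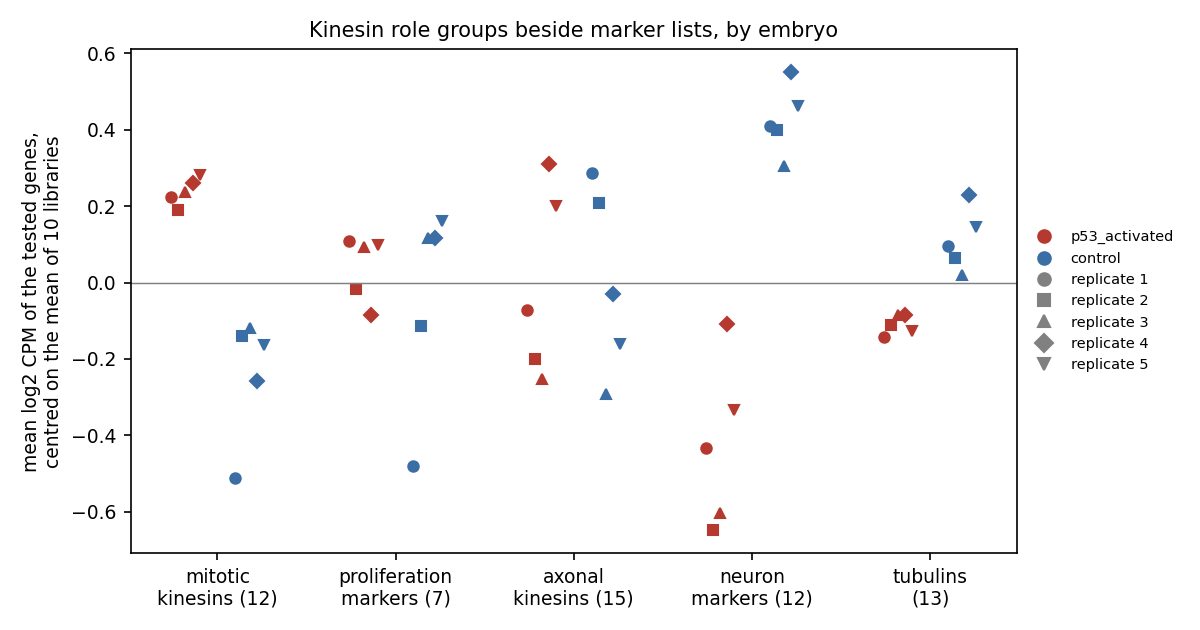
Mean log2 CPM of the tested genes of 5 lists in each embryo, centred on the mean of the 10 libraries (y axis), p53_activated in red to the left and control in blue to the right, with marker shape for the replicate number. The mitotic kinesins separate the groups (0.19 to 0.28 in p53_activated, -0.51 to -0.12 in control), as do the neuron markers in the opposite direction (-0.65 to -0.11 and 0.31 to 0.55), whereas the axonal kinesins overlap (-0.25 to 0.31 and -0.29 to 0.29).

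Of 5 tested kinesins listed under the cilium 0 were called by edgeR, beside 7.23% of all tested genes. A list this short can hold 0 calls at such a share. Kifap3, which fell, and its partners Kif3a and Kif3b also serve cilia but were counted with the axonal genes. Kif7, which acts in Hedgehog signalling at the cilium tip, had 11.98, 8.51, 10.5, 13.7 and 12.97 CPM in p53_activated replicates 1 to 5, against 7.56, 8.97, 9.63, 6.25 and 8.01 CPM in control replicates 1 to 5. The ranges overlapped through p53_activated replicate 2 (log2 fold change 0.51 ± 0.18, adjusted p = 0.0993), and 20.26% of its exon length is shared with other genes. At an unadjusted p under 0.05 edgeR had 1 of the 5, Kif7, as it had 22.6% of all tested genes. At an adjusted p under 0.05 DESeq2 called 0 of the 5, beside 1622 of 17103 genes. Kif24, a regulator of cilium formation, averaged 7.90 ± 2.78 and 5.80 ± 1.02 CPM (0.45 ± 0.25, edgeR adjusted p = 0.312). Kif19a, known to limit cilium length, averaged 14.1 ± 8.11 and 21.2 ± 13.2 CPM (-0.57 ± 0.43, adjusted p = 0.496), a value that was -0.12 without control replicate 4 and -1.01 without p53_activated replicate 4. Kif6 had 1.22 ± 0.74 and 0.71 ± 0.31 CPM (0.77 ± 0.55, adjusted p = 0.451), and Kif27 stood at -0.38 ± 0.45.

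Among the remaining kinesins Kif13a rose beside Kif1c. Kif13a encodes a kinesin-3 that moves recycling endosomes and, in melanocytes, carries cargo to melanosomes. It had 10.2, 13.4, 11.7, 24.9 and 21.7 CPM in p53_activated replicates 1 to 5, against 8.24, 8.57, 10.5, 8.80 and 7.36 CPM in control replicates 1 to 5. The groups touched at p53_activated replicate 1 and control replicate 3, and p53_activated replicates 4 and 5 stood apart. On the log2 scale the change was 0.92 ± 0.23 (1.89-fold, edgeR adjusted p = 0.0264). Without both of those libraries it was 0.45 (adjusted p = 0.194). The call was also lost without control replicate 1, 2, 4 or 5 (0.0523, 0.0648, 0.0543 and 0.0595) or p53_activated replicate 4 or 5 (0.0627 and 0.0791). Kif13a (ENSMUSG00000021375) lies on chromosome 13 from 46749087 to 46929867.

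Its close relative Kif13b averaged 4.29 ± 3.40 CPM in p53_activated and 2.20 ± 1.04 CPM in control libraries (log2 fold change 0.98 ± 0.47, edgeR adjusted p = 0.24). Without p53_activated replicate 4, which had 10.01 CPM, the log2 fold change was 0.38 (adjusted p = 0.65). Kif26a, which in mouse enteric neurons restrains GDNF signalling, averaged 11.3 ± 5.67 and 6.74 ± 1.48 CPM (0.75 ± 0.31, adjusted p = 0.169). Kif26b, a target of Wnt5a-Ror signalling, averaged 49.6 ± 13.2 and 62.4 ± 25.4 CPM (-0.33 ± 0.27, adjusted p = 0.534). Kif2a, a depolymerase that limits axon branching, had 41.8 ± 4.48 and 41.4 ± 3.33 CPM (0.01 ± 0.11, adjusted p = 0.969). Unlike the depolymerase gene Kif2c, it was not counted among the mitotic genes. Kifc2, a kinesin-14 of neurons, averaged 2.12 ± 0.32 and 3.75 ± 1.91 CPM (-0.82 ± 0.36, adjusted p = 0.184), and Kif16b, an early endosome motor, stood at 0.29 ± 0.21 (adjusted p = 0.473).

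Kif2b, Kif9, Kif12, Kifc3 and Klc3 had too few counts to be tested. Kif2b was at 0 counts in every library. The other 4 had 30 to 92 counts over the p53_activated and 27 to 78 counts over the control libraries.

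Several kinesins were high in the same libraries. In 16 of the 40 (40%) p53_activated replicates 4 and 5 were both above the other 3 p53_activated embryos, as in 2806 of all 14528 tested genes (19.3%). Kif20a, Kif13a, Kif13b, Kif1a, Kif1b, Kif3c, Kif21a and Kif21b were among them. Markers of red cells, epithelium, endothelium and muscle were high in the same pair. Those of macrophages were not high in both, with sums of 43.7 and 20.4 CPM (22.9 to 24.5 CPM in replicates 1 to 3). The summed level in p53_activated replicates 4 and 5 was 4810 and 2310 CPM for red cell markers (386 to 1190 CPM in replicates 1 to 3), 106 and 90.4 CPM for epithelium (37.7 to 54.5 CPM), 9.32 and 11.0 CPM for endothelium (4.06 to 5.23 CPM) and 45.5 and 51.3 CPM for muscle (27.9 to 33.1 CPM). Their neuron markers were at 748 and 616 CPM (481 to 570 CPM in replicates 1 to 3). In control replicates 4 and 5 the red cell markers summed to 3600 and 3430 CPM and the epithelium markers to 152 and 154 CPM. Those of endothelium summed to 14.8 and 10.9 CPM there, and those of muscle to 77.4 and 66.9 CPM. The called genes of the pattern, Kif20a and Kif13a, had 3.83 and 3.42 CPM and 8.80 and 7.36 CPM in these controls. The part of these cells in the kinesin values was not tested. The rise of level with gene length was also steepest in p53_activated replicates 4 and 5. It was 0.127 and 0.048 log2 units for each doubling of exon length. In the other p53_activated libraries it was -0.024 to 0.007, and in the control libraries -0.056 to -0.003. After removal of a length trend, a step added with the values in view, Kif20a stayed at 1.55 (edgeR adjusted p = 0.00472), Kif15 was at 0.47 (0.0198) and Kif13a at 0.80 (0.0313), all still called. In 13 of the 40 (32.5%) control replicates 1 and 2 were both above the other 3 controls, as in 3077 of all tested genes (21.2%), among them Kifap3, Kif3a, Klc1, Kif5a, Kif5c, Kif26b and Kif17. Their ratio of Hbb-y to Hbb-bh1, globins of the embryonic red cell, was also high (4.97 and 2.69, against 1.83 to 2.08 in p53_activated libraries and 1.59 to 1.95 in the other controls). Their neural tube progenitor markers summed to 707 and 644 CPM, against 979 to 1070 CPM in the other controls and 835 to 1120 CPM in p53_activated libraries, and the part of these cells in the kinesin values was not tested. Without both of them Kifap3 was at -0.32 (adjusted p = 0.0936) and Kif13a at 0.88 (0.116), neither called, while the other 5 calls were kept.

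**Figure D5:**
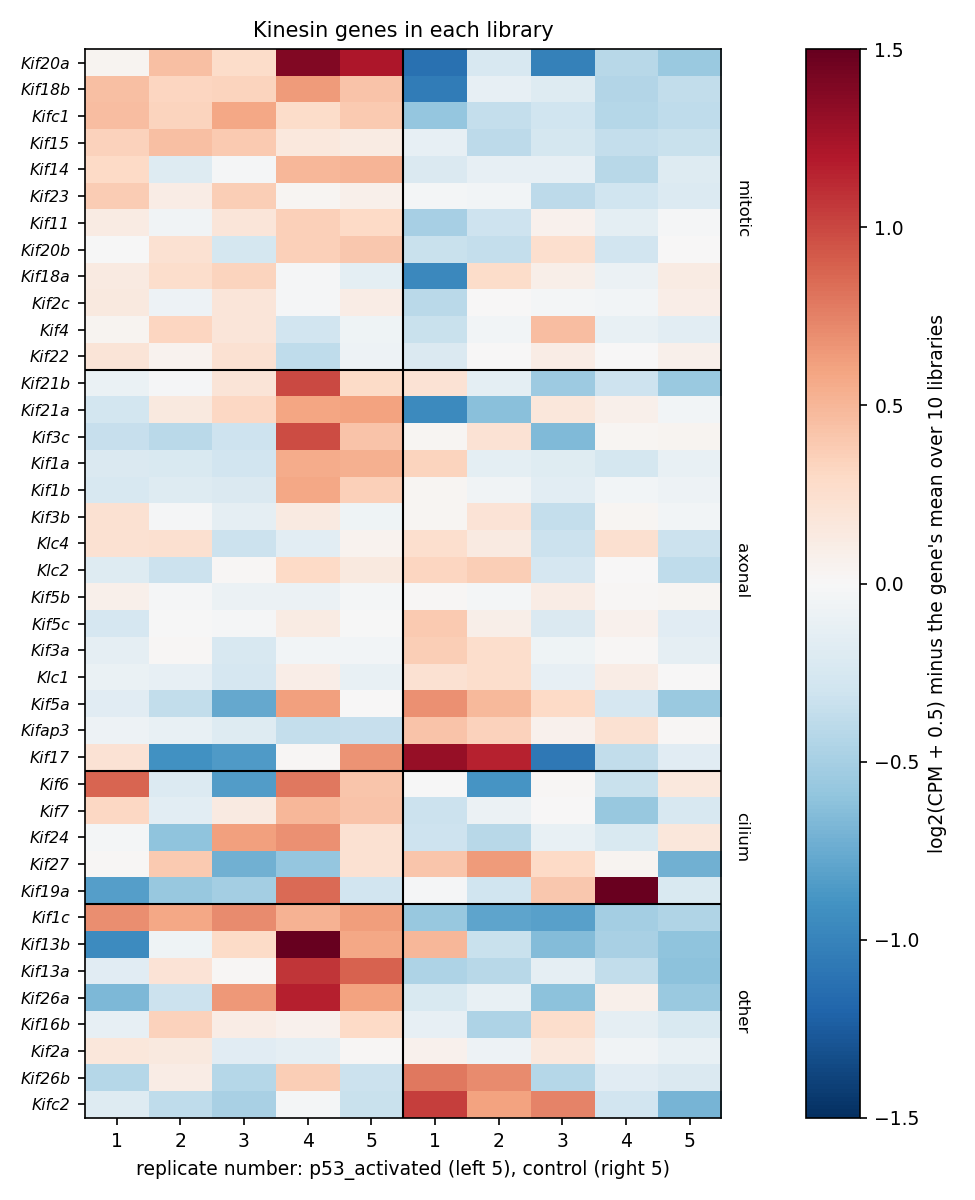
Level of the 40 tested kinesin genes in each library, as log2(CPM + 0.5) minus the gene's mean over the 10 libraries (colour), with p53_activated libraries in the left 5 columns and control libraries in the right 5. Kif1c, Kifc1, Kif15 and Kif18b change between the groups as blocks, while the red cells of Kif13a, Kif13b and Kif20a are deepest in p53_activated replicates 4 and 5.

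Compared per kilobase of exon, Kif22 had the highest level in control embryos, at 44.6 ± 3.72 CPM per kilobase, and 45.2 ± 7.38 in p53_activated embryos (SD, n = 5 each). In control embryos it was followed by Kif3a (26.1 ± 4.01), Klc1 (23.9 ± 2.64), Kifap3 (19.9 ± 2.43), Kifc1 (18.6 ± 1.305), Kif2c (16.1 ± 2.0), Kif5b (14.4 ± 0.55) and Kif5c (10.3 ± 1.79). Kif22 lay outside the range of Kif3a, and Kif5b outside that of Kif5c, whereas each of the neighbours from Kif3a to Kif5b overlapped in range. The order below Kif22 was different with the longest transcript in place of all exons. In p53_activated embryos Kifc1 stood at 33.0 ± 2.75, next below Kif22, and Kif1c at 14.7 ± 0.80, against 6.14 ± 0.70 in control embryos. Mitotic and transport motors were thus both among the abundant kinesins in these cells.

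Genes that work with kinesins were read from lists of the same kind. Of 18 mitotic partners 4 (22.2%, beside 4.49% of all tested genes) rose and 0 fell, and the list median was 0.33 on the log2 scale. The risers were Cenpe, itself a kinesin at kinetochores (115 ± 6.31 and 89.4 ± 7.34 CPM in p53_activated and control libraries, 0.37 ± 0.08, edgeR adjusted p = 0.0148), the spindle gene Hmmr (0.66 ± 0.17, adjusted p = 0.0241), Prc1 (1.08 ± 0.28, adjusted p = 0.0278), which bundles microtubules with Kif4, and Kntc1 (0.95 ± 0.28, adjusted p = 0.0486). Racgap1, the partner of Kif23, did not pass (-0.05 ± 0.09, adjusted p = 0.817). Of 26 tested cargo adaptors Grip1, which guides kinesin-1 into dendrites, rose (0.87 ± 0.14, adjusted p = 0.00122) and Mapk8ip1, which binds the light chains, fell (-0.36 ± 0.10, adjusted p = 0.0439), which is 7.69% called beside 7.23% of all tested genes, with a list median of 0.01. Of 27 genes of dynein and dynactin, the minus-end motor and its activator, Dync2h1 rose (0.83 ± 0.23, adjusted p = 0.0375) and Dctn5 fell (-0.38 ± 0.10, adjusted p = 0.0245), which is 7.41% called, with a median of -0.19. Of the partner genes Cenpe, and of the adaptors Grip1, kept the call without each library in turn. Hmmr lost it without 3 of the 10, and Prc1, Kntc1, Mapk8ip1, Dctn5 and Dync2h1 each without 6 or more.

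Alpha- and beta-tubulins form the tracks on which kinesins walk. Of 13 tested tubulin genes 5 fell and 1 rose (46.2%, beside 7.23% of all tested genes), and the list median was -0.48. The list also held the gamma-tubulin genes Tubg1 and Tubg2, neither of them called. Tuba1a, the main alpha-tubulin of young neurons, averaged 2205 ± 90.0 CPM in p53_activated and 3362 ± 528 CPM in control libraries (SD, n = 5 each; -0.61 ± 0.10, edgeR adjusted p = 0.00103). Tubb3 (-0.77 ± 0.13), Tubb2b (-0.48 ± 0.09), Tubb2a (-0.59 ± 0.13) and Tubb4a (-0.95 ± 0.22, lost without control replicate 2, adjusted p = 0.0513) also fell. Tubb6, a beta-tubulin of non-neuronal cells, rose, with 80.2 ± 9.80 and 31.0 ± 8.47 CPM (1.37 ± 0.16, adjusted p = 4.88e-05). Tubulin genes have near-identical copies, so their single counts are uncertain. Tubb3 is also on the list of neuron markers.

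By the authors' deposited table, 7 kinesins were higher and 1 lower at an adjusted p under 0.05, where 10.8% of all genes with an adjusted p were called. Beside the 7 genes above these include Kif23, for which the authors' deposited table gives a log2 fold change of 0.37 and an adjusted p of 0.0224.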

How the data were processed

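The deposited count table gives raw counts for each Ensembl gene and library, made by the authors. Per the file headers, the authors' own comparison lists a mean normalized count (a signal), log2 values (the fold change and its error), the Wald test's score, and p-values before and after adjustment. The submitters' processing notes name GRCm38, DESeq2 1.14.1, HTSeq 0.6.1, SAMtools 1.3.1 and HISAT2 2.0.4. Annotation release and strand setting: not given in the sources used here.

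Genes were kept by filterByExpr (minimum count 10, minimum total 15), scaled by TMM and tested with edgeR 4.0.16 (quasi-likelihood F-test, robust dispersions, all 10 libraries, no covariate) in R 4.3.3, with Benjamini-Hochberg adjustment over 14528 genes. SE was the size of a log2 change over the root of its F value. Fits were tested on simulated data. Lengths, positions and overlaps are from GENCODE M21 (GRCm38), which held 99.3% of the identifiers. Xist and Y-linked genes gave each embryo's sex. Control replicates 1, 3 and 4 and p53_activated replicates 1 and 4 were male, and the others were female.

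Nothing says that replicate numbers pair embryos, so no block was used. Members and lists were chosen with earlier results of these data known. All called members are given by library. Of the others, the 3 with the smallest p and the 3 with the highest level per length in each role group are given, others by fold change or range. Cdc23, Kifc5b and Racgap1 were named after their values were seen.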

Additional observations from a re-analysis of the deposited data

Results flagged for a closer look

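Each tested kinesin was screened for an embryo that lies far from the other 4 of its group, over 80 groups, of which 6 were picked out. Chance alone picks out about 1 in 20 such groups. Kif21b was at 66.6 CPM in p53_activated replicate 4, against 31.0 to 40.6 CPM in the other p53_activated embryos. Kif19a was at 28.4 CPM in p53_activated replicate 4, against 8.54 to 12.6 CPM in the others of that group, and at 44.1 CPM in control replicate 4, against 12.5 to 20.7 CPM in the other controls. Kif13b was at 4.04 CPM in control replicate 1, against 1.54 to 2.04 CPM in the other controls. Kif1a was at 25.5 CPM in control replicate 1, against 16.6 to 18.6 CPM, and Kif3c at 5.19 CPM in control replicate 3, against 8.70 to 9.99 CPM. None of these genes was called between the groups.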

How the results depend on the processing

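Over 23 other settings the kinesins called higher numbered 5 to 7, and those called lower 0 or 1. Over the same settings 430 to 961 of all genes were called higher and 192 to 661 lower. Kif1c, Kifc1, Kif15 and Kif18b kept their calls throughout. The 1 gene called lower, Kifap3, became 0 without both control replicates 1 and 2 and without both p53_activated replicates 4 and 5, and ranged from 0 to 1 on leaving out single libraries.

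The replicate numbers showed no clear pairing of embryos (correlations of same-numbered embryos -0.053 to 0.113), and 1 of 5 correlated best with its own number. So few correlations cannot exclude a pairing. With the replicate block 5 kinesins were called higher and 1 lower, with 804 calls over all genes, and Kif13a (0.83, adjusted p = 0.0537) was lost. With limma-voom Kif13a was lost as well (0.0597). Embryo sex as a term left 6 kinesins called higher and 1 lower, the same genes as without it. Over all genes it gave 496 called higher and 245 lower. DESeq2 called 1622 of all genes, against 1050 (652 higher, 398 lower), and upper quartile scaling 576 higher and 538 lower. Single libraries left out gave 636 to 1025 calls.

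Sign changes arose in 13 uncalled kinesins. Without both control replicates 1 and 2 these were Kif17 (1.013), Kif22 (-0.044), Kif26b (0.174), Kif4 (-0.045), Kif5a (0.066), Kif5c (0.073) and Klc2 (0.216). Without both p53_activated replicates 4 and 5 they were Kif1a (-0.178), Kif1b (-0.144) and Kif3c (-0.316), and with the length trend removed Kif1b (-0.059) and Kif2a (-0.04). With upper quartile scaling Kif22, Kif2a and Klc4 were at -0.017, -0.026 and -0.029, and with total counts at -0.007, -0.008 and -0.01. Kif22 was at -0.003 with embryo sex as a term, and limma-voom gave -0.002 for Kif22, -0.008 for Kif2a and 0.011 for Klc2. On leaving out single libraries the values ran from -0.03 to 0.106 for Kif22, -0.03 to 0.065 for Kif2a, -0.015 to 0.121 for Kif3b, -0.074 to 0.37 for Kif3c, -0.014 to 0.218 for Kif4, -0.128 to 0.024 for Kif5c, -0.123 to 0.066 for Klc2 and -0.069 to 0.094 for Klc4. The cause was not tested. With the longest transcript in place of all exons Kif22 remained highest per kilobase in control (61.0 CPM). Klc1 (38.8 CPM) then came before Kif3a (29.7 CPM), and Kifc1 (27.0 CPM) and Kif2c (24.7 CPM) before Kifap3 (19.9 CPM). Kif15 (14.6 CPM) and Kif23 (10.9 CPM) came before Kif5c (10.7 CPM). The standard errors of Kif17, Kif6 and Kif27, which had 55 to 132 counts a group, were 0.84, 0.55 and 0.45, and that of Kif13b, with 484 and 184 counts, was 0.47.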
